A study of Homo sapiens with 24 samples.

Results

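The effect of SLC25A51 knockdown on RNA was compared between cells given the toxin MPP+ and cells kept without it. For every gene the knockdown effect without MPP+ (shMCART1 minus shScramble) was subtracted from the knockdown effect with MPP+ (shMCART1_MPP minus shScramble_MPP). The result is called the MPP+ difference here, in units of log2(TPM + 1), where TPM is transcript abundance scaled to a common total. A positive MPP+ difference means that the knockdown raised a gene more, or lowered it less, in the presence of the toxin. The comparison used 12 of the 24 libraries of the series, 3 in each of 4 groups: shScramble, shMCART1, shScramble_MPP and shMCART1_MPP. shMCART1 is a short hairpin RNA against MCART1, the older symbol of SLC25A51, and shScramble is the scrambled control hairpin. All 4 groups carry the label SH-SY5Y, a human neuroblastoma line, and all express a hairpin; the MPP+ groups received 0.5 mM for 24 h. Polyadenylated RNA was sequenced. Whether the hairpin cells were a pool or a clone, and whether replicates were separate cultures, is not stated in the labels. The p-values therefore measure only the spread between these libraries, which may be technical.

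SLC25A51 sits in the inner mitochondrial membrane and carries NAD+ into the matrix, where complex I of the respiratory chain turns NADH back into NAD+. MPP+ blocks complex I and is used in cell models of Parkinson's disease. Mitochondrial stress is known to start the integrated stress response (ISR), in which phosphorylation of the initiation factor eIF2 slows translation while the transcription factor ATF4 is made. ATF4 switches on genes for amino acid synthesis and uptake together with the feedback regulator TRIB3 and the enzyme CHAC1. Immediate early genes such as JUN and DUSP1 are a separate group, induced within minutes by kinase signals.

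Between 12913 (shMCART1 replicate 3) and 13982 genes reached 1 TPM per library, and libraries of a group correlated at 0.975 to 0.990 across genes, which are not independent replicates. TPM are rescaled to the same total, so the sequencing depth is unknown. shMCART1 replicate 3 also stood apart in its slope of log2(TPM + 1) on transcript GC content, 0.751 per 10 percentage points against a lowest value of 0.0534 in shScramble replicate 2. Several defining markers of SH-SY5Y were missing, while 9 of 15 listed adrenergic neuroblastoma factors were measured. In the 6 untreated libraries TFAP2B, ALK, SOX11, tyrosine hydroxylase (TH), SLC6A2 and the dopamine transporter SLC6A3 were listed at 0. PHOX2A reached at most 0.09 TPM and DBH 0.07 TPM there. In the 6 libraries with MPP+, SOX11, TH, SLC6A2 and SLC6A3 were again listed at 0. GATA2 stood at 19.2 to 39.1 TPM, HAND1 at 5.56 to 10.5 TPM and HAND2 at 2.53 to 4.44 TPM over the 12 libraries. KLF13 stood at 6.45 to 16.6 TPM, TBX2 at 4.36 to 8.61 TPM and GATA3 at 4.13 to 7.24 TPM. ISL1 (2.07 to 4.32 TPM), EYA1 (1.15 to 3.85 TPM) and LMO1 (0.55 to 2.04 TPM) were lower. Of the kidney epithelial markers CDH16 was listed at 0, PAX8 reached at most 0.02 TPM, and KRT7 and KRT19 reached at most 0.2 TPM. Others of that list were measured, with CDH1 at 2.37 to 3.99 TPM, EPCAM at 1.40 to 3.17 TPM, PAX2 at 0.53 to 1.34 TPM and LHX1 at 0.25 to 1.68 TPM. The growth protocol names HEK293T beside SH-SY5Y, and the identity of the cells was not tested. The libraries are therefore called by hairpin and treatment, and SLC6A3, by which MPP+ is known to enter dopamine neurons, is listed at 0 in all 12.

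The hairpin's target was read first. SLC25A51 (ENSG00000122696), which GENCODE 29 places on the minus strand of chromosome 9 at 37879400 to 37904353 (GRCh38), measured 10.5, 11.1 and 11.3 TPM in shScramble and 6.91, 9.45 and 5.47 TPM in shMCART1. The MPP+ libraries held 6.87, 8.38 and 8.47 TPM in shScramble and 5.12, 5.82 and 5.06 TPM in shMCART1. Every knockdown library lay below every control library of its own treatment, and the mean was 66.5% of control without and 67.5% with MPP+. The MPP+ difference was 0.07 ± 0.22 log2 (SE, n = 3 per group; limma adjusted p = 0.879; two-sided exact permutation p = 0.87, where 0.005 is the smallest possible). Its sign turned under median-of-ratios scaling (-0.04) and quantile normalization (-0.07), and without shMCART1 replicate 3 (-0.10). The treated effect alone missed the threshold narrowly (-0.49 log2, adjusted p = 0.0503), against -0.56 log2 (0.0155) without MPP+. Reads of the near-identical gene SLC25A52 could be counted here, so these values are uncertain.

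Of 14872 genes tested, 122 differed in their response to knockdown with and without MPP+ (limma, Benjamini-Hochberg adjusted p under 0.05), or 0.820% of the genes. The MPP+ difference was higher in 57 (0.383%) and lower in 65 (0.437%). RHOB, JUN, DUSP1, ADAMTS1 and INSIG1 were among the largest on the higher side, and NUPR1, CHAC1, SESN2 and TRIB3 on the lower side. The median MPP+ difference was 0.95 log2 for the higher genes (0.48 to 1.89) and -0.75 log2 for the lower ones (0.41 to 1.54 in size). Over all genes tested it was 0.08 log2, and -0.01 after median-of-ratios scaling. For comparison, knockdown alone was called for 5960 genes (40.1%) without MPP+ and for 2284 (15.4%) with it. At an unadjusted p under 0.05 the MPP+ difference was higher for 1628 genes (10.9%) and lower for 1214 (8.16%).

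For most of the 122 genes the knockdown effect was the larger one in cells given MPP+. This held for 95 of them, against 35.9% of all genes tested. The 2 effects had opposite signs for 100 of the 122, against 28.8% of all genes. Both effects were called and opposite for 35 genes (18 of the higher and 17 of the lower ones). The effect was called only with MPP+ for 68 (26 higher, 42 lower) and only without it for 15 (11 higher, 4 lower). The other 4, ADAMTS1, CCN1, MAT2A and MTHFS, were called in both and moved the same way, further with MPP+. Since the sign and size of the 2 effects enter the difference itself, these counts describe the 122 genes and test nothing. The shScramble_MPP and shMCART1_MPP libraries did not overlap for 116 of the 122 (49.5% of all genes), and the untreated libraries did not overlap for 70 (48.0% of all genes).

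**Figure D1:**
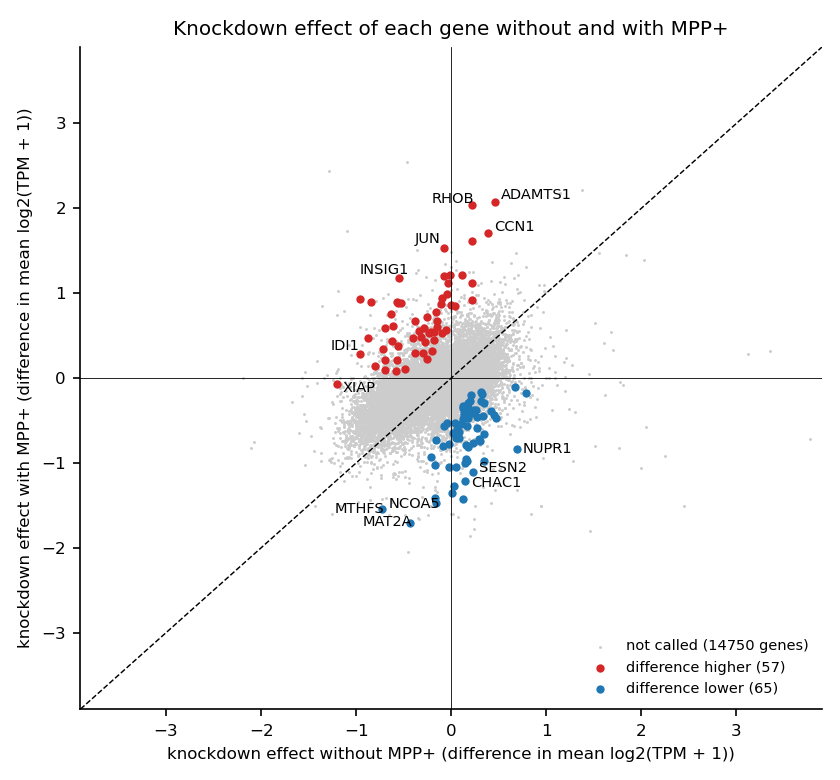
Each point is a gene, with the knockdown effect without MPP+ on the horizontal and with MPP+ on the vertical axis (differences in mean log2(TPM + 1), 3 libraries per group); the dashed line marks equal effects. The 57 genes with a higher and the 65 with a lower MPP+ difference lie above and below the line, and ADAMTS1 and CCN1 lie to the right on the higher side, MAT2A and MTHFS to the left on the lower side.

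The number of calls depended on single libraries. Leaving out shScramble replicate 1, 2 or 3 left 21, 32 or 63 called genes, and leaving out shMCART1 replicate 1 left 31. Without shMCART1 replicate 2 there were 1782 calls (1246 higher, 536 lower), and without replicate 3 there were 208. Without shScramble_MPP replicate 1, 2 or 3 there were 43, 26 and 23, and without shMCART1_MPP replicate 1, 2 or 3 there were 24, 19 and 41. All 122 genes kept their sign in all 12 of these fits. Of the 39 called genes named in the text, 12 were called in every one of the 12 fits: RHOB, INSIG1, ADAMTS1, JUN, KLF6, DUSP1, ATF3, SESN2, TRIB3, NCOA5, LBHD1 and INHBE. The other named genes were called in at least 2 of the 12 fits, and the median was 4 over the 39. Median-of-ratios scaling ended the calls of SLC7A5 (adjusted p = 0.0504), SMOX (0.0517) and VIM (0.0918), and a pseudocount of 0.1 those of TRMT11 and MTHFS (0.0568 each). The MPP+ difference also moved with transcript GC content (Spearman's rho -0.506 across genes, a description), with a median GC content of 49.1% for the higher, 58.8% for the lower and 50.3% for all genes. With each library's GC trend removed, 730 of 14268 genes were called (5.12%; 318 higher, 412 lower), among them 119 of the 122 with the same sign. Spearman's rho with GC content was 0.777 for the knockdown effect without MPP+ and 0.477 for the effect with it. Single knockdown effects, and turns of their sign such as those of KLF6, SOX4, ZNF143 and HSPA5, are given on deposited values only. The part of the GC trends in the calls was not tested beyond this removal.

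Genes of the integrated stress response were a main group on the lower side. The lists of ISR transcription and feedback genes, secreted ISR factors, amino acid synthesis genes and amino acid transporters together held 41 measured genes. The MPP+ difference was called lower for 12 of them (29.3%, against 0.437% of all genes) and higher for 1, ATF3. It was below 0 for 33 of the 41, with a median of -0.37 log2 (0.08 for all genes). Of the 41, 5 (NUPR1, GDF15, FGF21, INHBE and ADM2) reached 1 TPM in at most 2 untreated libraries, and 4 of these 5 are among the 12. Of the other 36, 8 were lower (22.2%) and 1 higher, with a median of -0.33 log2. The knockdown effect with MPP+ was called lower for 28 of the 41 (9.69% of all genes) and higher for 2 (5.67%), while without MPP+ 9 were called higher (10.9%) and 9 lower (29.2%). With GC trends removed 20 were called lower (2.89% of all genes) and 2 higher (2.23%), with a median difference of -0.33 log2.

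CHAC1, a glutathione-degrading enzyme and ATF4 target (ENSG00000128965), measured 4.62, 2.59 and 4.01 TPM in shScramble and 3.43, 4.20 and 4.94 TPM in shMCART1. In the presence of MPP+ the levels were 55.5, 55.8 and 58.4 TPM in shScramble and 21.9, 22.9 and 26.7 TPM in shMCART1. The untreated groups overlapped, while with MPP+ every knockdown library lay far below the controls, and the MPP+ difference was -1.36 ± 0.22 log2 (SE, limma adjusted p = 0.0208). FGF21, a stress hormone under ATF4 control, was listed at 0, 0 and 0.05 TPM in shScramble and at 0 in the 3 shMCART1 libraries. With MPP+ it reached 3.66, 3.20 and 3.81 TPM in shScramble and 1.11 to 1.27 TPM in shMCART1 (difference -1.02 ± 0.17 log2, adjusted p = 0.0200). FGF21 was thus measurable in the MPP+ groups alone, and all 3 knockdown libraries stood below the 3 controls.

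The promoters of CHAC1 and FGF21 are shown because both hold the CEBP-ATF response element TGATGNAA, the sequence that ATF4 and a C/EBP partner are known to bind. That of DUSP1, a gene on the higher side, is shown for contrast, with the element TGACGTCA bound by CREB and ATF factors. Each run gives the 250 bases before the RefSeq transcript start on GRCh38.p14, 5′ to 3′ on the gene's strand, with the motif match in capitals. In CHAC1 and FGF21 the match lies on the opposite strand, so the capitals show its reverse complement. The regions are chr15:40953221-40953470 (plus strand) for CHAC1, chr19:48755274-48755523 (plus strand) for FGF21 and chr5:172771196-172771445 (minus strand) for DUSP1.
CHAC1: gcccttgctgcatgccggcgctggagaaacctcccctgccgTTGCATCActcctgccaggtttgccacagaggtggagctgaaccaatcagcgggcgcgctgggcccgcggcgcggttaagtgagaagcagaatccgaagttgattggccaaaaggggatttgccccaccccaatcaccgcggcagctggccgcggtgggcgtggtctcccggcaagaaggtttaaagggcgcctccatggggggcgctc
FGF21: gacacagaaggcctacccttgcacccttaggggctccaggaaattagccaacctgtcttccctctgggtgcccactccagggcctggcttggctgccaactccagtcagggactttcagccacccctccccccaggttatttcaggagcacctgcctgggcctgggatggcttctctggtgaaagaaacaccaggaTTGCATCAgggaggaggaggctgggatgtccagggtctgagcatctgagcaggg
DUSP1: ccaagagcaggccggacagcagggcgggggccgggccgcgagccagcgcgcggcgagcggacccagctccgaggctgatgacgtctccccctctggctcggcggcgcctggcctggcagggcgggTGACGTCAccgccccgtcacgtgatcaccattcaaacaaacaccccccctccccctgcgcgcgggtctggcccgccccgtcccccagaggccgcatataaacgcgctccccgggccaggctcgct
Searched on both strands, TGATGNAA occurred in the promoters of 3 of 48 lower genes and 2 of 46 higher genes with a RefSeq promoter (ATF3 and ZNF143), against 3.14% of 35116 promoters of the same length and 1.30% of the 10678 promoters of genes tested. TGACGTCA occurred in 3 lower and 2 higher genes (1.65% of all, 3.12% of genes tested), and the AP-1 element TGANTCA in 2 lower and 3 higher genes (6.57% of all, 3.44% of genes tested). The sterol element TCACNCCAC occurred in 1 lower and 0 higher genes (0.883% of all, 0.815% of genes tested). With 0 to 3 matches per group, no difference from these shares can be read. A match describes letters in this window and is no measured binding site.

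Several genes of the ISR transcription and feedback list were lower too. TRIB3, a pseudokinase that restrains ATF4, measured 16.8, 14.3 and 17.1 TPM in shScramble and 20.4, 18.1 and 23.5 TPM in shMCART1. Toxin-treated libraries showed 179.9, 169.5 and 189.9 TPM in shScramble and 84.9, 90.0 and 97.5 TPM in shMCART1 (difference -1.32 ± 0.15 log2, limma adjusted p = 0.00273). Knockdown libraries were the higher ones without MPP+ and the lower ones with it, with no overlap in either case. SESN2, a stress-induced inhibitor of mTORC1 (ENSG00000130766), measured 28.8, 23.9 and 30.3 TPM in shScramble, 31.1, 29.7 and 37.0 TPM in shMCART1, 113.2, 116.3 and 123.1 TPM in shScramble_MPP and 48.4, 53.5 and 61.2 TPM in shMCART1_MPP. Its MPP+ difference was -1.33 ± 0.16 log2 (adjusted p = 0.00450). The untreated SESN2 groups overlapped and the treated ones did not. NUPR1, a small stress-induced chromatin protein, stood at 0.03 to 1.81 TPM in the 6 untreated libraries. It reached 65.7, 62.8 and 55.7 TPM in shScramble_MPP against 37.4, 31.8 and 32.7 TPM in shMCART1_MPP (difference -1.53 ± 0.31 log2, adjusted p = 0.0465). NUPR1 levels without MPP+ were so low that a fold change there is understated by the pseudocount. Its call ended with a pseudocount of 0.1 (-2.74 log2, adjusted p = 0.0884), no filter (0.0868), median-of-ratios scaling (0.0657), quantile normalization (0.0581) and without the mitochondrial DNA genes (0.0512), and in all but 2 of the 12 fits without 1 library. CEBPB, a C/EBP partner of ATF4, differed by -0.99 ± 0.18 log2 (adjusted p = 0.0309). It lay at 44.8 to 49.0 TPM in shScramble_MPP and 25.7 to 27.8 TPM in shMCART1_MPP, and the antisense gene CEBPB-AS1 overlaps 11.8% of its exons.

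Without single libraries 2 to 6 of the 14 measured genes of the ISR transcription and feedback list were lower and 1 to 3 higher. The most of each came without shMCART1 replicate 2. With all libraries 8 of the 14 lay below 0 and 6 above. Of the 14, 5 were called lower (0.437% of all genes) and 1 higher (0.383%). The higher one was ATF3, an ATF factor induced both by the ISR and by kinase signals. ATF3 measured 39.4, 40.4 and 39.5 TPM in shScramble and 41.9, 46.2 and 41.8 TPM in shMCART1. Given MPP+, the cells had 180.8, 148.8 and 139.4 TPM in shScramble and 403.7, 371.1 and 316.2 TPM in shMCART1 (difference 1.10 ± 0.15 log2, limma adjusted p = 0.00834). It was thus high with MPP+ in both hairpin groups and highest in the knockdown, without overlap. ATF4 itself, chosen for naming after its values were seen, stood at 800.5 to 832.8 TPM in shScramble_MPP and 930.0 to 936.9 TPM in shMCART1_MPP. Its MPP+ difference of 0.29 ± 0.07 log2 missed the threshold (adjusted p = 0.0694), while its knockdown effect with MPP+ alone was 0.19 log2 (adjusted p = 0.0213). ATF4 mRNA was therefore not lower in the cells in which CHAC1, TRIB3 and SESN2 were lower. Its protein was not measured here. No gene was called among the 12 measured ISR kinases and relay factors (limma; median 0.26 log2).

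**Figure D2:**
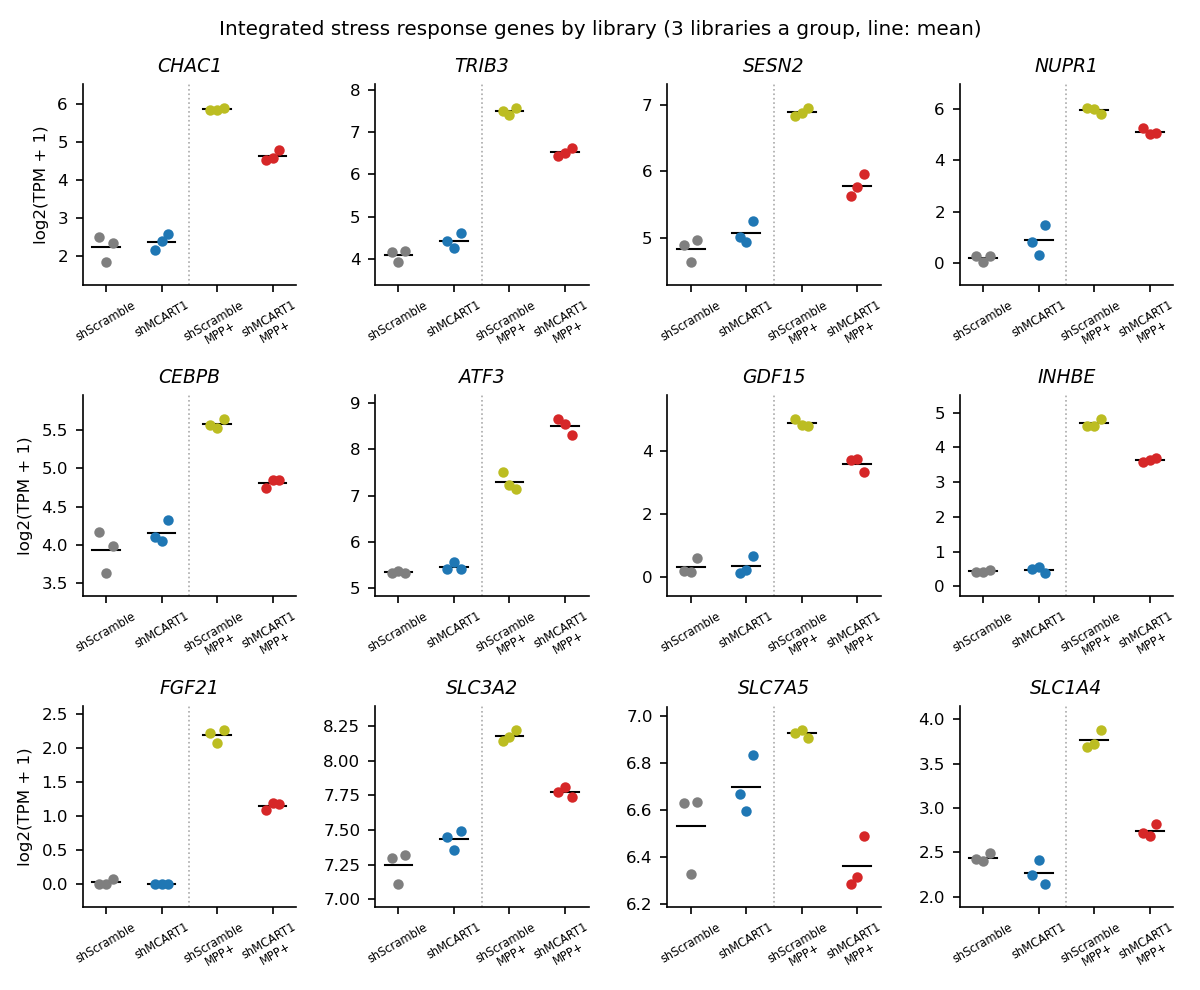
Log2(TPM + 1) of integrated stress response genes in each of the 12 libraries (points) with group means (lines); each panel has its own axis, and the dotted line separates the untreated from the MPP+ table. The shMCART1_MPP points of TRIB3, CHAC1 and SESN2 lie below the shScramble_MPP points, and those of ATF3 above.

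The 6 measured secreted factors made under mitochondrial stress had a median of -0.87 log2, with 1 to 3 lower calls without single libraries. With all libraries the MPP+ difference was called lower for 3 of the 6 (0.437% of all genes), FGF21, GDF15 and INHBE. All 3 lay under 1 TPM in every untreated library and entered the test through the MPP+ libraries alone. Their knockdown effect without MPP+ is therefore held near 0 by the pseudocount (-0.02, 0.03 and 0.05 log2), and the MPP+ difference restates the effect with MPP+. GDF15, a stress hormone acting on the hindbrain, lay at 0.11 to 0.61 TPM in the 6 untreated libraries. Under MPP+ the values were 31.9, 27.5 and 27.0 TPM in shScramble and 12.2, 12.7 and 9.24 TPM in shMCART1 (difference -1.31 ± 0.25 log2, limma adjusted p = 0.0426). The treated groups were far apart, and the untreated ones all under 1 TPM. INHBE, which encodes activin E, measured 0.32, 0.33 and 0.39 TPM in shScramble, 0.41, 0.46 and 0.31 TPM in shMCART1, 23.4, 23.8 and 27.5 TPM in shScramble_MPP and 10.9, 11.5 and 12.1 TPM in shMCART1_MPP. Its MPP+ difference was -1.10 ± 0.15 log2 (adjusted p = 0.00899). With a pseudocount of 0.1 the calls of FGF21 (adjusted p = 0.213) and GDF15 (0.257) ended, and that of GDF15 also under median-of-ratios scaling (0.0504) and quantile normalization (0.0515).

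Amino acid transporters were lower in 4 of 11 measured members (0.437% of all genes) and higher in none, with a median of -0.52 log2. With GC trends removed 7 were lower (2.89% of all genes). SLC3A2, the heavy chain shared by several exchangers, measured 156.7, 137.3 and 158.9 TPM in shScramble and 174.2, 162.6 and 179.0 TPM in shMCART1. The MPP+ libraries held 281.8, 287.4 and 298.5 TPM in shScramble and 217.6, 223.6 and 213.1 TPM in shMCART1 (difference -0.59 ± 0.10 log2, limma adjusted p = 0.0195). Knockdown libraries were the higher ones without MPP+ and the lower ones with it. SLC7A5, the light chain that pairs with SLC3A2 to import leucine, lay at 119.1 to 122.0 TPM in shScramble_MPP and 76.98 to 88.78 TPM in shMCART1_MPP (difference -0.73 ± 0.13 log2, adjusted p = 0.0334). SLC1A4, a carrier of alanine, serine and cysteine, lay at 11.9 to 13.8 TPM and 5.41 to 6.08 TPM in the same groups (-0.86 ± 0.15 log2, adjusted p = 0.0303). The glycine transporter SLC6A9 lay at 15.7 to 18.2 TPM and 10.3 to 11.8 TPM (-0.86 ± 0.16 log2, adjusted p = 0.0376). None of these 3 overlapped between hairpins with MPP+, which held for 49.5% of all genes. Leaving out single libraries left 0 to 7 lower calls in the list. The 7 came without shMCART1 replicate 2, where 536 of all 14872 genes were lower.

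In the amino acid synthesis list the 10 measured genes gave no call (limma), though 9 of the 10 lay below 0. GC removal gave 5 lower calls (2.89% of all genes). For 6 of the 10 the knockdown effect with MPP+ was called lower (9.69% of all genes). The serine enzyme PSPH (-0.65 log2, limma adjusted p = 0.0856) and the arginine enzyme ASS1 (-0.36, 0.0648) came nearest to a call of the MPP+ difference on deposited values. Among the 21 cytosolic tRNA synthetases none was called, with a median of -0.02 log2. WARS1, the tryptophanyl one, had -0.51 log2 (adjusted p = 0.0584). Of 11 folate genes 1 was lower (0.437% of all genes), MTHFS, which recycles 5-formyltetrahydrofolate (-0.82 ± 0.17 log2, limma adjusted p = 0.0483). It fell with knockdown in both settings, by 0.73 log2 without and by 1.55 log2 with MPP+, and 34.0% of its exon length overlaps the readthrough gene ST20-MTHFS.

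Methionine and polyamine genes moved in both directions, with 1 of 17 measured members higher (0.383% of all genes) and 2 lower (0.437%). MAT2A, which makes the methyl donor S-adenosylmethionine, measured 118.6, 117.8 and 118.7 TPM in shScramble and 92.2, 103.1 and 70.0 TPM in shMCART1. In the presence of MPP+ the levels were 60.2, 74.4 and 80.4 TPM in shScramble and 18.5, 20.2 and 25.1 TPM in shMCART1 (difference -1.27 ± 0.21 log2, limma adjusted p = 0.0208). It fell with knockdown in both settings without overlap, and further with MPP+; GGCX overlaps 12.4% of its exon length. SAT1, the enzyme that acetylates spermidine and spermine for export, measured 26.3, 26.9 and 24.5 TPM in shScramble and 24.1, 29.3 and 22.8 TPM in shMCART1. With MPP+ it rose with knockdown, from 76.7, 63.0 and 63.7 TPM to 168.2, 148.9 and 127.8 TPM (difference 1.15 ± 0.17 log2, adjusted p = 0.0134). SMOX, which oxidises spermine, went the other way (-0.78 ± 0.15 log2, adjusted p = 0.0395). Its knockdown effect was 0.67 log2 without MPP+ and -0.11 log2 with it.

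Immediate early genes were a main group on the higher side. Of 33 measured members of the AP-1 list and the other immediate early list together, 7 were called higher (21.2%, against 0.383% of all genes) and 0 lower. The median was 0.29 log2, and 24 of the 33 lay above 0. With GC trends removed 13 were higher (2.23% of all genes) and 1 lower (2.89%). The knockdown effect with MPP+ was called higher for 17 of the 33 (5.67% of all genes) and lower for 0 (9.69%). Without MPP+ it was called higher for 7 (10.9%) and lower for 2 (29.2%). The AP-1 list gave 1 call, JUN, among 11 measured members, whose median was 0.03 log2. The other list gave 6 among 22, with a median of 0.46 log2.

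RHOB, a small GTPase that moves endosomes and is quickly induced by stress, measured 56.8, 54.4 and 52.0 TPM in shScramble and 63.6, 63.2 and 62.6 TPM in shMCART1. Toxin-treated libraries showed 89.3, 66.5 and 58.0 TPM in shScramble and 329.9, 290.6 and 256.2 TPM in shMCART1. Knockdown libraries were slightly higher without MPP+ and several-fold higher with it (difference 1.82 ± 0.19 log2, limma adjusted p = 0.00169). JUN, a subunit of the AP-1 transcription factor, measured 101.5, 100.6 and 109.2 TPM in shScramble and 97.8, 109.8 and 87.9 TPM in shMCART1. Given MPP+, the cells had 136.1, 113.1 and 109.9 TPM in shScramble and 396.9, 359.6 and 293.3 TPM in shMCART1. The untreated JUN groups overlapped, and with MPP+ all 3 knockdown libraries stood above the controls (difference 1.62 ± 0.17 log2, adjusted p = 0.00169).

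DUSP1, a phosphatase that switches off stress-activated MAP kinases, measured 16.6, 16.6 and 17.0 TPM in shScramble and 20.5, 19.0 and 19.3 TPM in shMCART1. Under MPP+ the values were 27.4, 23.6 and 20.5 TPM in shScramble and 89.5, 75.6 and 61.1 TPM in shMCART1 (difference 1.40 ± 0.18 log2, limma adjusted p = 0.00774). Both pairs of DUSP1 groups were separate, with the larger gap under MPP+. KLF6, a zinc finger transcription factor, measured 7.81, 7.61 and 6.98 TPM in shScramble, 4.92, 5.86 and 3.61 TPM in shMCART1, 9.48, 9.28 and 8.86 TPM in shScramble_MPP and 19.0, 18.1 and 16.4 TPM in shMCART1_MPP. Its direction turned: knockdown lowered KLF6 without MPP+ (-0.56 log2) and raised it with MPP+ (0.88 log2; difference 1.44 ± 0.19 log2, adjusted p = 0.00736). CCN1, a secreted matrix protein, lay at 28.7 to 35.1 TPM in shScramble_MPP and 82.9 to 130.4 TPM in shMCART1_MPP (difference 1.32 ± 0.20 log2, adjusted p = 0.0169). BHLHE40, a stress-induced repressor named after its values were seen, differed by 0.90 log2 (adjusted p = 0.0450). Leaving out single libraries left 3 to 9 higher calls in the immediate early list. The 9 came without shMCART1 replicate 2, where 1246 of all 14872 genes were higher.

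**Figure D3:**
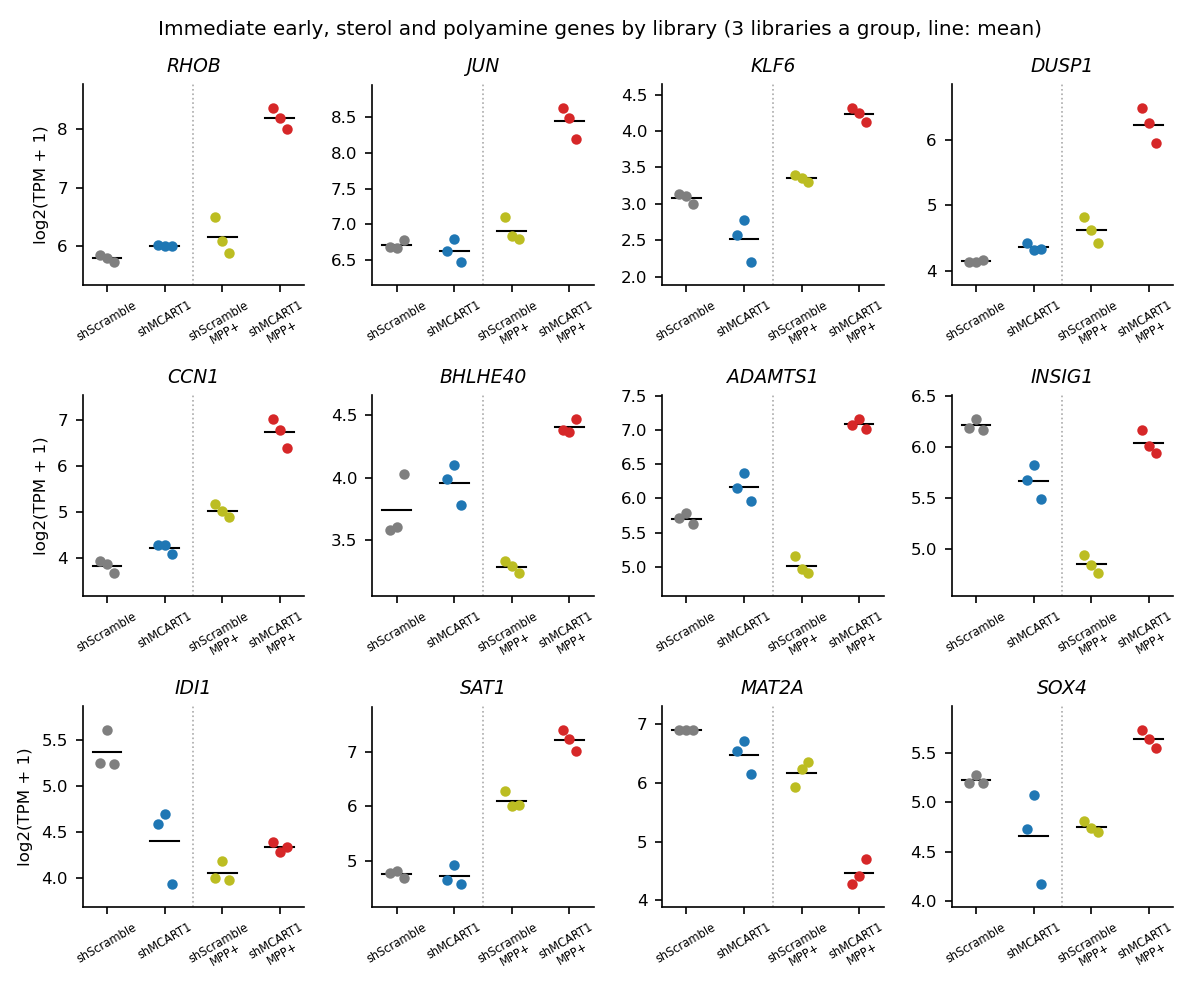
Log2(TPM + 1) of immediate early, sterol, polyamine and other genes in each of the 12 libraries (points) with group means (lines), each panel on its own axis, untreated libraries left of the dotted line. RHOB, JUN and DUSP1 are highest in the 3 shMCART1_MPP libraries, and MAT2A is lowest there.

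Genes of sterol synthesis were higher in 2 of 25 measured members (0.383% of all genes), with a list median of 0.18 log2. INSIG1, which holds the sterol sensor SCAP in the endoplasmic reticulum and is itself a target of SREBP factors, measured 71.9, 76.4 and 70.8 TPM in shScramble and 50.2, 55.4 and 44.1 TPM in shMCART1. The MPP+ libraries held 29.8, 27.8 and 26.3 TPM in shScramble and 70.7, 63.2 and 60.2 TPM in shMCART1. The order of the hairpins was thus reversed between the treatments without overlap, and INSIG1 had the smallest p of all genes tested (difference 1.73 ± 0.13 log2, limma adjusted p = 0.000242). IDI1, an isoprenoid isomerase of the same pathway, measured 37.0, 47.9 and 36.9 TPM in shScramble and 23.0, 24.8 and 14.3 TPM in shMCART1. In the presence of MPP+ the levels were 15.02, 17.2 and 14.8 TPM in shScramble and 20.0, 18.4 and 19.2 TPM in shMCART1 (difference 1.24 ± 0.24 log2, adjusted p = 0.0428). The gap of IDI1 was the wider one without MPP+, and IDI2-AS1 overlaps 14.8% of its exon length. Without single libraries the list had 1 to 8 higher calls, the 8 without shMCART1 replicate 2, where 1246 of all 14872 genes were higher.

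In the endoplasmic reticulum unfolded protein list 1 of 22 measured genes was higher (0.383% of all genes) and 0 lower, with a median of 0.24 log2. Without single libraries 0 to 8 were higher, the 8 without shMCART1 replicate 2, where 1246 of all 14872 genes were higher. With GC trends removed 6 were higher (2.23% of all genes) and 2 lower (2.89%). HSPA5, the main chaperone of that compartment, fell with knockdown without MPP+ by 0.40 log2 and rose with it by 0.47 log2 (difference 0.88 ± 0.16 log2, limma adjusted p = 0.0334). It lay at 169.0 to 175.8 TPM in shScramble_MPP and 214.1 to 271.5 TPM in shMCART1_MPP. XBP1, a transcription factor of the same response, had -0.41 log2 (limma adjusted p = 0.0584). In this list the knockdown effect without MPP+ was called lower for 15 of 22 genes (29.2% of all genes), with a median of -0.39 log2. The fall of HSPA5 without MPP+ was near that median.

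Messenger RNAs encoded by mitochondrial DNA were higher in 3 of 13, MT-ND1, MT-CO2 and MT-CO3 (0.383% of all genes). The 13 mRNAs had a median of 0.83 log2, and 12 of them lay above 0. They encode respiratory chain and ATP synthase subunits and are cut from shared transcripts, so they are not independent of each other. Their share of all TPM was 4.61 to 5.13% in shScramble and 3.85 to 5.00% in shMCART1. With MPP+ it was 0.270 to 0.312% in shScramble and 0.402 to 0.434% in shMCART1, in tables that were scaled separately. Knockdown libraries therefore held the larger share with MPP+, while the untreated ranges overlapped. MT-ND1, a complex I subunit, measured 794.6, 762.0 and 807.9 TPM in shScramble and 841.0, 856.5 and 557.3 TPM in shMCART1. Toxin-treated libraries showed 151.2, 166.9 and 130.7 TPM in shScramble and 297.8, 276.8 and 284.1 TPM in shMCART1 (difference 1.03 ± 0.20 log2, limma adjusted p = 0.0390).

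MT-CO2, a complex IV subunit, measured 193.5, 226.3 and 170.4 TPM in shScramble_MPP and 365.7, 328.8 and 378.8 TPM in shMCART1_MPP (difference 0.98 ± 0.18 log2, limma adjusted p = 0.0362). MT-CO3 of the same complex measured 81.9, 79.6 and 76.95 TPM and 140.5, 125.0 and 145.6 TPM there (difference 0.93 ± 0.16 log2, adjusted p = 0.0300). The groups of both genes were separate with MPP+ (49.5% of all genes). The untreated libraries of MT-CO2 ranged from 4504 TPM, in shMCART1 replicate 3, to 6393 TPM, and the hairpins overlapped. MT-ATP8 came close to the threshold (0.98 ± 0.24 log2, adjusted p = 0.0768), and it shares 22.2% of its length with MT-ATP6. MT-ND6 (-0.03 log2) and MT-ND3 (0.00 log2) lay near 0. Leaving out single libraries gave 0 to 10 higher calls in the list. The 10 came without shMCART1 replicate 2, a fit that called 1246 of all 14872 genes higher. GC removal gave 5 higher calls (2.23% of all genes). The nuclear genes that copy and express mitochondrial DNA gave no call among 21 (limma).

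**Figure D4:**
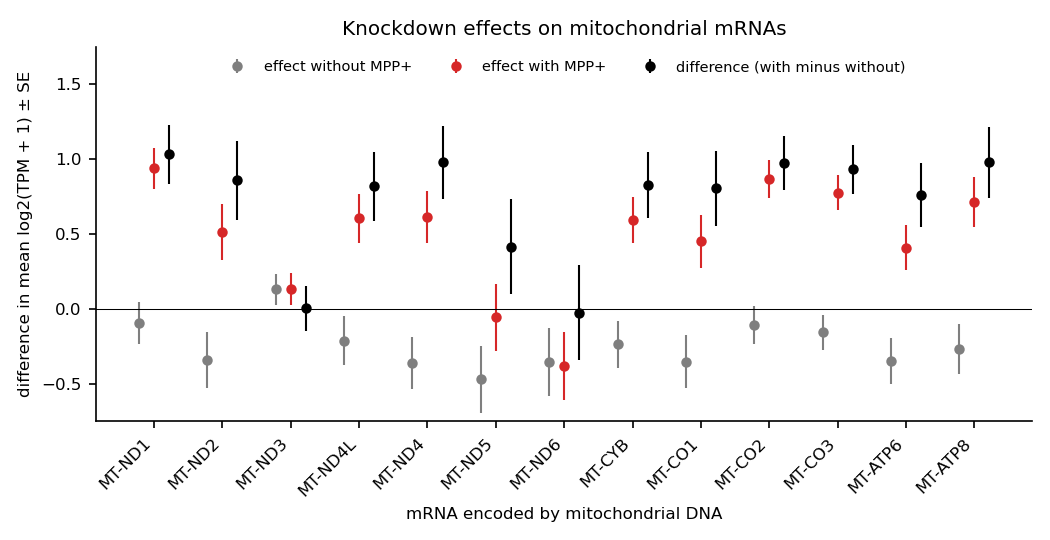
Knockdown effects without (grey) and with MPP+ (red) and their difference (black) for the mRNAs encoded by mitochondrial DNA, in log2(TPM + 1) with standard errors, 3 libraries per group. All differences but that of MT-ND6 lie above 0, and MT-ND1, MT-CO2 and MT-CO3 passed the test.

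CDKN1A, the cell cycle inhibitor p21, measured 17.3, 14.7 and 19.8 TPM in shScramble and 21.4, 19.1 and 24.1 TPM in shMCART1. Given MPP+, the cells had 30.6, 28.1 and 29.6 TPM in shScramble and 16.7, 17.3 and 17.6 TPM in shMCART1 (difference -1.05 ± 0.16 log2, limma adjusted p = 0.0138). Its effect was 0.31 log2 without MPP+ and -0.74 log2 with it, and the treated groups were well apart. The list for the antioxidant factor NRF2 and glutathione held 23 measured genes, of which 1 was lower (0.437% of all genes) and 0 higher. The lower one was NQO1, a quinone reductase (-0.71 ± 0.14 log2, limma adjusted p = 0.0457).

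Among mesenchymal and matrix genes 2 of 17 measured members were higher (0.383% of all genes). The list median was -0.04 log2, with 8 members above 0 and 9 below. ADAMTS1, a secreted metalloprotease, measured 51.2, 54.1 and 48.1 TPM in shScramble and 69.8, 82.1 and 61.2 TPM in shMCART1. Under MPP+ the values were 34.5, 30.2 and 29.1 TPM in shScramble and 134.3, 142.7 and 128.5 TPM in shMCART1 (difference 1.62 ± 0.15 log2, limma adjusted p = 0.000807). Knockdown libraries were higher in both settings, with a much wider gap under MPP+. The intermediate filament gene VIM had 0.48 ± 0.10 log2 (adjusted p = 0.0457). VIM lay at 300 to 404 TPM in the untreated and 504 to 629 TPM in the MPP+ libraries, the largest part of the list's sum. The summed level of the list was 670 to 733 TPM in shScramble, 685 to 734 TPM in shMCART1, 795 to 860 TPM in shScramble_MPP and 1007 to 1083 TPM in shMCART1_MPP. Its part in the other results was not tested. The 9 measured adrenergic neuroblastoma factors and the 4 measured kidney markers gave no call.

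Other genes with large differences belong to none of these groups. SOX4, a developmental transcription factor, fell with knockdown without MPP+ (-0.57 log2) and rose with it (0.89 log2; difference 1.46 ± 0.24 log2, limma adjusted p = 0.0195). It lay at 24.9 to 27.1 TPM in shScramble_MPP and 45.8 to 52.5 TPM in shMCART1_MPP. ZNF143, a promoter-binding zinc finger factor, turned in the same way (-0.70 and 0.59 log2; difference 1.29 ± 0.22 log2, adjusted p = 0.0236). TRMT11, a tRNA methyltransferase subunit, had 1.35 ± 0.28 log2 (adjusted p = 0.0473), most of it from its fall without MPP+ (-0.87 log2). On the lower side NCOA5, a nuclear receptor coactivator, measured 17.1, 18.8 and 20.7 TPM in shScramble_MPP and 5.68, 5.71 and 7.01 TPM in shMCART1_MPP. Its MPP+ difference was -1.32 ± 0.17 log2 (adjusted p = 0.00736), and the untreated groups overlapped at 27.0 to 36.0 TPM. ZC3H4, which restrains transcription of non-coding RNA, had -1.15 ± 0.19 log2 (adjusted p = 0.0236). LBHD1 had -1.11 ± 0.13 log2 (adjusted p = 0.00450), and UQCC3 and other genes share up to 20.9% of its exon length.

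Most of the metabolic and mitochondrial lists held no called gene. In 25 of the 39 lists limma called 0 of the members, 616 genes in all. At an unadjusted p under 0.05, 90 of these genes were higher (14.6%, against 10.9% of all genes) and 51 lower (8.28%, against 8.16%). With GC trends removed 15 were higher (2.44%, against 2.23%) and 19 lower (3.08%, against 2.89%), so these pooled shares are mostly near those of all genes. Single lists could differ, as amino acid synthesis did, with 5 of 10 lower after GC removal. The lists without a call were NAD carriers and NAD metabolism, ISR kinases, amino acid synthesis, tRNA synthetases, mitochondrial DNA expression, complex I subunits and assembly factors, complexes II to V, mitochondrial ribosomes, and mitochondrial chaperones. The TCA cycle, glycolysis, HIF-1 targets, heat shock proteins, the BCL2 family, autophagy, the proteasome, translation factors, cytosolic ribosomes, DNA replication, mitosis, catecholamine genes, adrenergic factors and kidney markers gave none either. Their medians ran from -0.23 log2 (amino acid synthesis) to 0.31 log2 (HIF-1 targets). Of 37 nuclear complex I subunits, the target of MPP+, 7 were higher (18.9%, against 10.9% of all genes) and 4 lower (10.8%, against 8.16%) at an unadjusted p under 0.05, with a median of 0.07 log2. NDUFS5, an accessory subunit, came nearest (0.46 log2, adjusted p = 0.0755). Of the 23 NAD metabolism genes, the NAD+-consuming SARM1 (-0.65 log2, adjusted p = 0.0559) and the rate-limiting salvage enzyme NAMPT (0.77 log2, adjusted p = 0.102) had the smallest p. SARM1 shares 39.7% of its exon length with SLC46A1. Lack of a call does not show that these genes responded alike.

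**Figure D5:**
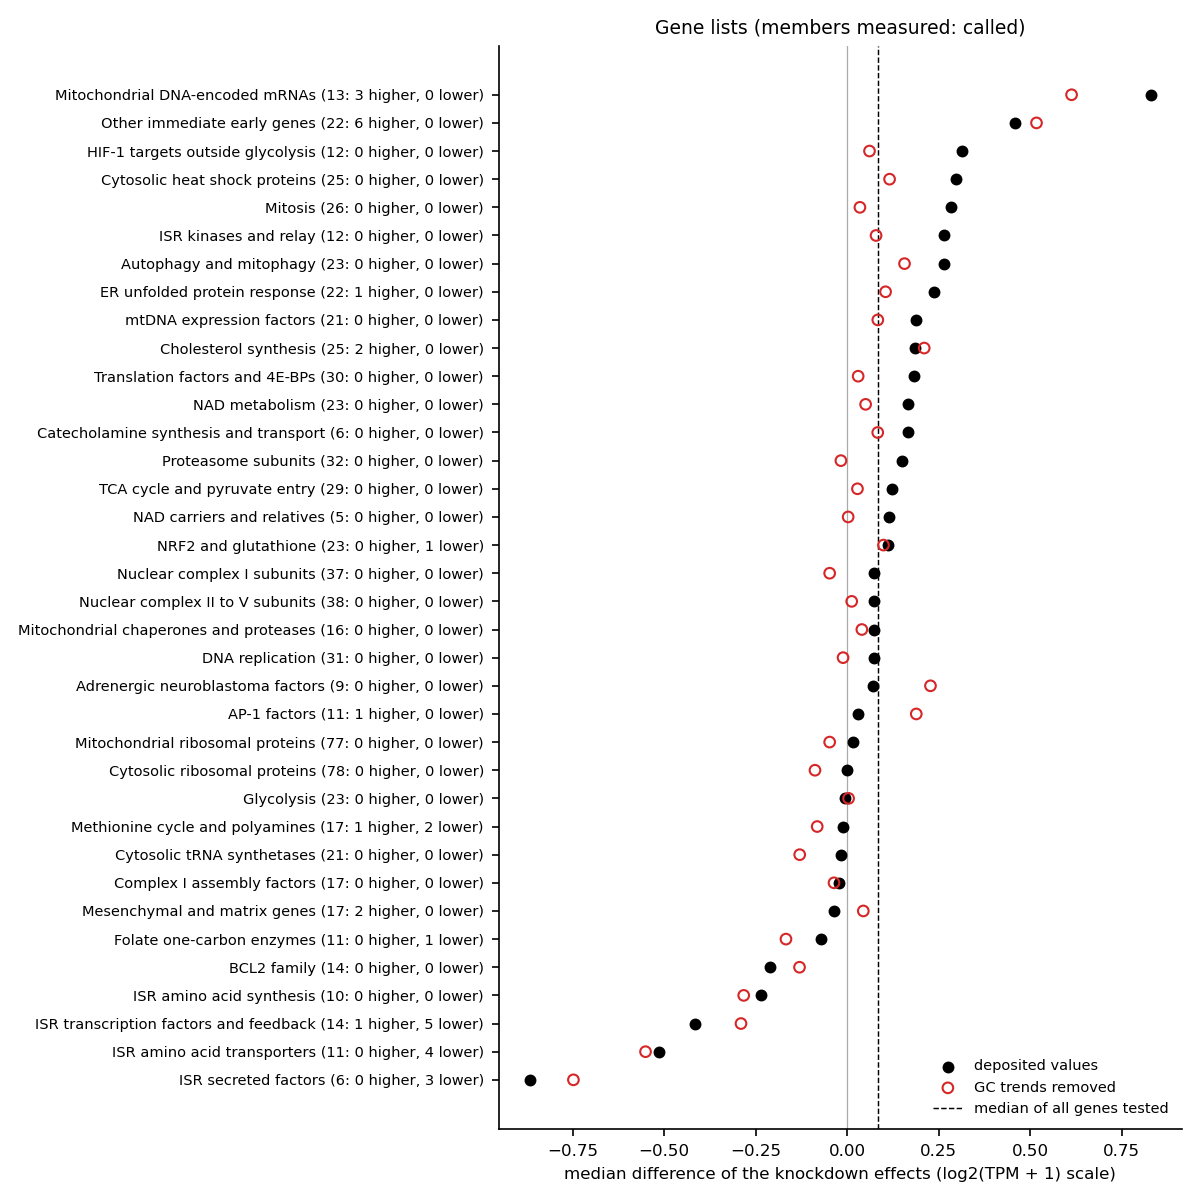
Median MPP+ difference (log2) of 36 gene lists with at least 5 measured members, on deposited values (filled) and with GC trends removed (open); brackets give the members measured and called, and the dashed line marks the median of all genes tested. Secreted factors, amino acid transporters, and transcription and feedback genes of the integrated stress response lie at the negative end. The mRNAs encoded by mitochondrial DNA (0.83) lie at the positive end. FGF21, GDF15 and INHBE of the secreted list lay under 1 TPM in every untreated library, so their differences restate the effect with MPP+.

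The same contrast was set beside SLC25A51 overexpression, (oeMCART1_MPP minus oeNC_MPP) minus (oeMCART1 minus oeNC), in a fit of all 24 libraries. The knockdown difference minus the overexpression difference was called for 22.3% of all genes tested. It was called for 117 of the 122, which were chosen for the knockdown arm of this same quantity, so that count is a description and supports nothing. The overexpression difference alone was called for 18.6% of all genes. Its sign was opposite to that of the knockdown difference in 111 of the 122 (91.0%) and in 63.6% of all genes: 49 of the 57 higher genes and 62 of the 65 lower ones. The median overexpression difference was -0.50 log2 for the higher genes, 0.69 log2 for the lower genes and 0.06 log2 for all genes. INSIG1 differed most plainly, with an overexpression difference of -2.75 log2 against its knockdown difference of 1.73 log2. The 3 called mitochondrial mRNAs went the same way in both, with overexpression differences of 1.47 log2 for MT-CO2, 1.36 log2 for MT-CO3 and 0.89 log2 for MT-ND1. For these 3 the test of knockdown against overexpression gave limma adjusted p = 0.16, 0.18 and 0.75, which does not show that the differences are equal. The other mitochondrial mRNAs are not compared here.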

How the data were processed

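Polyadenylated RNA was measured in the 12 libraries of the 4 hairpin groups and, for 1 comparison, in the 12 overexpression libraries. The deposited values are TPM, scaled by the authors to a constant sum in each library, in 1 table for untreated and 1 for treated libraries; TPM keep no depth, so counting errors cannot be given. The submitters' processing notes name GRCm38, mm10 and GRCh38 without a role; the aligner and annotation were not given in the sources used here. Libraries are strand-specific per the labels' protocols, but whether counting used strand is not stated, so overlapping genes are uncertain.

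The tables held 63241 and 36741 identifiers after 25 and 42 entries without identifier or values were left out, and 31524 were shared. Genes with 1 TPM or more in at least 3 of 12 libraries were tested on log2(TPM + 1) with limma 3.58.1 in R 4.3.3 (lmFit, contrasts.fit, eBayes with trend), 1 mean per group; the pseudocount of 1 understates changes of low genes. Levels across the 2 tables are only set side by side. A constant shift of a gene's log level between tables cancels in the difference of 2 within-table effects, apart from the pseudocount. A knockdown effect that differs between the tables for another reason does not cancel. As all MPP+ libraries are in 1 table and all untreated ones in the other, MPP+ and table cannot be told apart. GC trends were removed per library with a natural spline (5 degrees of freedom) on transcript GC content from GENCODE 29, which also gave locations. Promoters came from RefSeq (GRCh38.p14). Python 3.11.15, pandas 2.3.3, numpy 2.4.6, scipy 1.17.1 and matplotlib 3.10.9 were used.

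The text names SLC25A51, the largest differences (at most 12 in each direction) among genes called with and without GC removal, with an official symbol and a mean of at least 10 TPM in 1 group; and up to 4 members per list with the smallest p. The comparison, the members and the 39 gene lists (881 genes) were chosen with earlier results of these data known. Some genes and lists chosen by this rule are not reported here. On simulated data for the knockdown difference (14872 genes, 50 changed per fold), 0% of 1.25-fold, 20% of 1.5-fold, 64% of 2-fold and 96% of 4-fold changes were recovered, with 6 false calls. The simulated noise was independent between genes and libraries, and only genes above a set mean level were changed. Deviations that a real library shares across genes were not simulated, so the false calls do not carry over to these data.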

Additional observations from a re-analysis of the deposited data

Results flagged for a closer look

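The genes below were singled out because their knockdown effect differed between cells with and without MPP+ by the test of the difference itself (limma, adjusted p under 0.05), and because the rule for named genes chose them. Values are MPP+ differences in log2(TPM + 1).

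On the higher side stood the immediate early genes RHOB (1.82), JUN (1.62), KLF6 (1.44), DUSP1 (1.40) and CCN1 (1.32), the sterol genes INSIG1 (1.73) and IDI1 (1.24), the matrix protease ADAMTS1 (1.62), the transcription factors SOX4 (1.46) and ZNF143 (1.29), the tRNA methyltransferase subunit TRMT11 (1.35) and the polyamine acetylase SAT1 (1.15).

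On the lower side stood the stress response genes NUPR1 (-1.53), CHAC1 (-1.36), SESN2 (-1.33), TRIB3 (-1.32), GDF15 (-1.31), INHBE (-1.10) and CEBPB (-0.99), the methionine enzyme MAT2A (-1.27), the cell cycle inhibitor CDKN1A (-1.05), and NCOA5 (-1.32), ZC3H4 (-1.15) and LBHD1 (-1.11). With 3 libraries a group, single libraries were not tested as outliers.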

How the results depend on the processing

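For the MPP+ difference, 122 genes were called, and 274 under quantile normalization, 730 with GC trends removed, 727 with GC and length trends removed, 4269 with library weights (whose fit gave a convergence warning), 633 in a fit of all 24 libraries and 78 without the mitochondrial DNA genes. Median-of-ratios scaling, a pseudocount of 0.1, a robust variance, and a filter of 5 TPM or none gave 93 to 164. Of the 122 calls, 86 were kept under median-of-ratios scaling, 91 with a pseudocount of 0.1 and 75 without a filter. The robust variance kept 118, and the filter of 5 TPM kept all 112 that passed it. Leaving out 1 library gave 19 to 1782. For knockdown without MPP+ (5960) the count was 1716 with GC trends removed, 1748 with GC and length trends removed and 9966 with library weights, and 2417 to 7848 without 1 library. For knockdown with MPP+ (2284) it was 6395 with library weights and 3488 in all 24 libraries, and 644 to 4267 without 1 library. Scaling moved the split of calls from 1614 higher and 4346 lower to 3662 and 3043 without MPP+, and from 843 and 1441 to 1281 and 1270 with it (median-of-ratios); under quantile normalization the splits were 3157 and 3155, and 1555 and 1519. The SLC25A51 difference of 0.07 log2 turned to -0.0354 (median-of-ratios), -0.0702 (quantile) and -0.0002 (GC and length), and ran from -0.10 to 0.25 without 1 library, with -0.10 without shMCART1 replicate 3 and -0.02 without shScramble_MPP replicate 1. The causes of these changes were not tested. Among the named called genes none changed sign under any setting; 13 of 39 lost their call without a filter and 7 of 36 without the mitochondrial DNA genes.

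Same-numbered libraries of the 2 hairpins correlated in their deviations at -0.0464, 0.295 and 0.214 without MPP+. With MPP+ the values were -0.00553, -0.0709 and 0.0192. Differently numbered libraries gave -0.312 to 0.137 without and -0.0645 to 0.0666 with MPP+. These correlations across all genes cannot decide whether the numbers pair the samples. With the replicate block the MPP+ difference gave 281 calls (131 higher, 150 lower), and 524 with GC trends removed as well. The SE of RHOB was 0.096 with the block and 0.187 without, and that of SLC25A51 0.199 and 0.217. For knockdown without MPP+ the replicate block with GC trends removed gave 1846.

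Depth is unknown in TPM, so no counting error stands beside low values such as FGF21 or untreated GDF15, and with 3 libraries a group changes under 2-fold were mostly missed on simulated data.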
